A study of Mus musculus with 576 samples.

Results

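Red cell progenitors kept for 48 hours with dexamethasone and progenitors kept for 24 hours without it are compared here. The pair was chosen as plates of similar red cell development. A score of that development, made from the same measurements, checks this choice and is no finding. In the median cell it was 2.07 with dexamethasone and 2.29 without it, or 2.12 and 2.89 once cells with neutrophil or monocyte markers were left out. The pair consists of 92 cells from the plate of dexamethasone day 2 and 94 cells from the plate of control day 1, which is 186 of the 563 cells kept in the series. Wells had to hold 50000 counts and 1500 genes or more, with no more than 20% of counts on mitochondrially encoded genes. All cells came from the fetal liver of C57/Bl6J mice at embryonic day 14.5. Lineage-positive cells were removed with antibodies, and the remainder was sorted by CD117, CD71 and CD24 for burst-forming unit-erythroid cells, the early committed progenitors of red cells. Every culture, with or without dexamethasone, held 100 ng/mL of stem cell factor, 40 ng/mL of IGF1 (insulin-like growth factor) and 2 U/mL of erythropoietin. The dexamethasone cultures also received this synthetic glucocorticoid at 100 nM. Each of the 6 combinations of treatment and day has 1 plate of 96 wells, and the labels do not say whether plates came from separate animals or cultures. Treatment and day therefore cannot be told apart in this pair, and no test between the plates was possible. Cells of a plate are not replicates, so values are given for the plate and for its cells, without p-values.

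Glucocorticoids act through a nuclear receptor that binds DNA and raises or lowers transcription of its target genes. In early red cell progenitors they favour division without maturation, and are known for their part in the response to anaemia and for relieving Diamond-Blackfan anaemia. Maturation of these progenitors is marked by the loss of stem cell genes such as Kit, Gata2 and Cd34. It is also marked by a gain of transferrin receptor, heme enzymes, membrane skeleton proteins and globins, and by rapid divisions.

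Promoters of 5 genes at least 2-fold higher in dexamethasone day 2 than in control day 1 are shown here, all holding a motif match. Each is given as the 250 bases before the gene's start in RefSeq, build GRCm38.p6. The first set shows genes of the oxygen-sensing pathway, with the core of the hypoxia response element, ACGTG on either strand, in capitals. The stretches are chr8:45999851-46000100 (minus strand) for Ankrd37, chr7:138909507-138909756 (minus strand) for Bnip3 and chr12:54203875-54204124 (minus strand) for Egln3.
Ankrd37: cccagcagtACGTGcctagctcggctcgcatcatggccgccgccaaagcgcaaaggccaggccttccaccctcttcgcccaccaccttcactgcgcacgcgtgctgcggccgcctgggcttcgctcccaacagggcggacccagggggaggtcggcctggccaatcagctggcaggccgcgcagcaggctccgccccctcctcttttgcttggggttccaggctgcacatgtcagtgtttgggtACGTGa
Bnip3: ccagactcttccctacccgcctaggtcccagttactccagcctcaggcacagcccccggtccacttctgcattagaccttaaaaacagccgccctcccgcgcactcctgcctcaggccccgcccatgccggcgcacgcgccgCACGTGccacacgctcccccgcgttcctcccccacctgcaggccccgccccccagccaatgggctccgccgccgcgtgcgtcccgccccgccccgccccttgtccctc
Egln3: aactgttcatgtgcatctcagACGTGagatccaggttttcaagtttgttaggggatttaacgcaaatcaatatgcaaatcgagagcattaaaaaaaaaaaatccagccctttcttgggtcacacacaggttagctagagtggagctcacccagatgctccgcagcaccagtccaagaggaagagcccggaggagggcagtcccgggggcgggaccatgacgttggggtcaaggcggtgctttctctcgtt
In Bnip3 the 2 matches lie on opposite strands and overlap. The core was found in 16.6% of 32851 promoters of this length. It was found in 18 of 38 promoters of the glycolysis and hypoxia list, or 47.4%, and in 12 of the 15 promoters of its members that were at least 2-fold higher in dexamethasone day 2 than in control day 1. These 15 promoters belong to 12 genes, of which 11 had a match. The other lists searched held it in 10 of 33 promoters of glucocorticoid targets (30.3%) and 3 of 10 promoters of metallothionein and zinc genes. Among members of these 2 lists that were at least 2-fold higher, it was found in 4 of 11 and 2 of 3 promoters. The second set shows the neighbouring metallothionein genes, Mt2 at chr8:94172368-94172617 and Mt1 at chr8:94178839-94179088, both on the plus strand. Capitals mark a metal response element in Mt2, searched as TGCNCNC followed at once by GGCCC, and a glucocorticoid response element in Mt1, searched as GNACA, any 3 bases and TGTNC. N is any base, and both strands were searched for each motif.
Mt2: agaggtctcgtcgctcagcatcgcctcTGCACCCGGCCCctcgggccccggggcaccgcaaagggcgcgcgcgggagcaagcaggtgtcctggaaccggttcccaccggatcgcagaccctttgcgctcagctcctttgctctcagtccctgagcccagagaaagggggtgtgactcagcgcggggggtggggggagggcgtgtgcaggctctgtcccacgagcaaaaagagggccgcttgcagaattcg
Mt1: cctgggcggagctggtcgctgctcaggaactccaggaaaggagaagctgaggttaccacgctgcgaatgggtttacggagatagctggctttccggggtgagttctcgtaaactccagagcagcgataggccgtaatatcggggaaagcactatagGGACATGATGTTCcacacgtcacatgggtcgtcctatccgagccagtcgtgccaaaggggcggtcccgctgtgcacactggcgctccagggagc
The metal element was found in 0.167% and the glucocorticoid element in 0.387% of all promoters, with 2 of 33 promoters of the listed glucocorticoid targets holding the second. A match describes these letters only and does not show that a protein binds there.

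The 2 plates held similar numbers of reads per cell and cells of similar stage, but the control plate was the more mixed. The kept cells held 111671610 counts on dexamethasone day 2 and 88178493 on control day 1, with a median per cell of 1074683 and 922603. At 500000 counts per cell, a median cell had 8136 genes with a count in dexamethasone day 2 (89 cells deep enough) and 7722 in control day 1 (87 cells). The stage score is the mean log2(CPM + 1) of globin, heme, membrane and terminal genes minus that of early progenitor genes, where CPM scales each cell to the same total. Its median was 2.07 in dexamethasone day 2 and 2.29 in control day 1. The cells between the 10th and 90th percentiles ran from 0.03 to 2.98 in dexamethasone day 2 and from -2.35 to 3.66 in control day 1. Control day 1 thus held both less and more advanced cells than dexamethasone day 2. At least 10 CPM of at least 2 neutrophil or monocyte markers were found in 8 cells of dexamethasone day 2 and 19 cells of control day 1. Without these cells the median score was 2.12 in place of 2.07 in dexamethasone day 2, and 2.89 in place of 2.29 in control day 1.

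**Figure D1:**
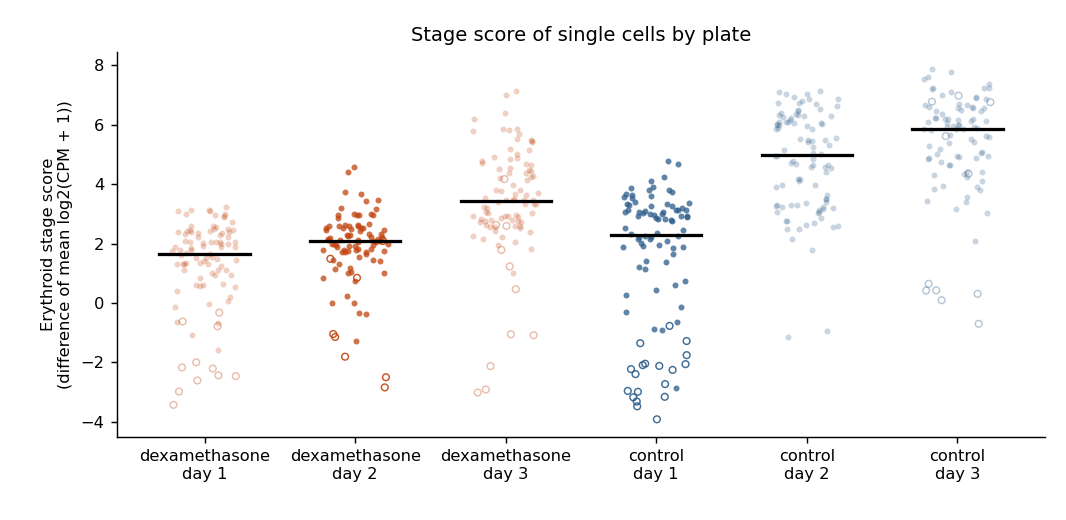
Stage score of each kept cell (vertical axis, difference of mean log2(CPM + 1)) on the 6 plates, with the 2 compared plates in full colour. Black bars are medians, 2.07 for dexamethasone day 2 and 2.29 for control day 1, and open circles are cells with at least 2 neutrophil or monocyte markers.

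The sorted markers were present on both plates. Summed over 10 progenitor markers, including Kit, Tfrc, Cd24a, Gata1, Klf1 and Epor, the plate level was 5404 CPM in dexamethasone day 2 and 4573 CPM in control day 1, and all 10 had counts on both. Tfrc, which encodes CD71, was at 1408 CPM in dexamethasone day 2 and 1326 CPM in control day 1. Epor, the erythropoietin receptor, was at 169 CPM in dexamethasone day 2 and 150 CPM in control day 1. These levels are nearly the same. Cd24a was at 1234 CPM in dexamethasone day 2 and 647 CPM in control day 1, short of a 2-fold difference. Markers of other liver cells were counted too. The 20 neutrophil and monocyte genes summed to 533 CPM in dexamethasone day 2 and 1364 CPM in control day 1. The 13 macrophage genes summed to 9.4 CPM in dexamethasone day 2 and 10.5 CPM in control day 1, with C1qa, C1qb, C1qc, Cd5l, Siglec1 and Cd163 at 0 on both plates. Hepatocyte and mast cell markers are given with the genes they concern below. The 14 lymphoid genes summed to 6.77 CPM in dexamethasone day 2 and 22.2 CPM in control day 1.

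The row of largest level, CT010467.1, had 63548 CPM in dexamethasone day 2 and 27382 CPM in control day 1, and the mitochondrial ribosomal RNA mt-Rnr2 had 23336 CPM in dexamethasone day 2 and 9075 CPM in control day 1. The part of these abundant RNAs in the ratios of other genes was not tested beyond the scalings reported with the limits.

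Levels of a plate were the sum of counts over its kept cells, as CPM with TMM scaling over the 6 plates. In such a sum, fewer cells with a transcript and less of it per cell cannot be told apart, so values of single cells are given where a result turns on a gene. Of 49466 genes, 8694 reached 10 CPM on the higher of the 2 plates. In dexamethasone day 2 relative to control day 1, 675 of these (7.76%) were at least 2-fold higher and 649 (7.46%) at least 2-fold lower, with a median log2 ratio of -0.07. The plates were chosen by this contrast, and nothing is read from these shares. Of the same genes, 235 (2.70%) were at least 2-fold above the highest of the 3 control plates, and 129 (1.48%) at least 2-fold below the lowest. All 3 dexamethasone plates were above all 3 control plates for 567 genes (6.52%) and below them for 766 (8.81%).

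**Figure D2:**
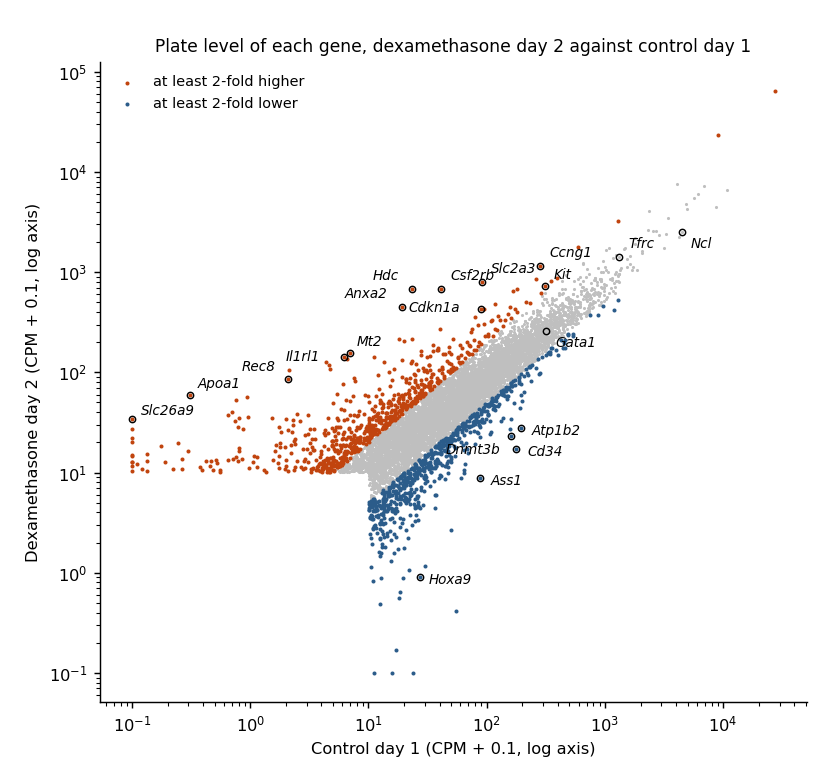
Plate level of the 8694 genes in dexamethasone day 2 (vertical axis) and control day 1 (horizontal axis), both as CPM + 0.1 on log axes. Orange points are the 675 genes at least 2-fold higher and blue points the 649 at least 2-fold lower in dexamethasone day 2, with examples ringed.

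Known targets of the glucocorticoid receptor were higher in dexamethasone day 2. Of 30 listed genes 18 were measured, with a median log2 ratio of 1.04. Of these, 10 were at least 2-fold higher and 2 at least 2-fold lower than in control day 1. Over all 8694 genes the shares were 7.76% and 7.46%, which stand beside each list count below. Listed targets could be measured through dexamethasone day 2 alone, which can raise their count and median. With no filter on low values, 12 of 27 targets were at least 2-fold higher and 4 at least 2-fold lower, with a median of 0.73. Mt2, a metallothionein that binds zinc and copper (chromosome 8, bases 94172664 to 94173568, plus strand), had 63.7, 157 and 76.6 CPM on dexamethasone days 1, 2 and 3, against 6.83, 3.49 and 0.971 CPM on control days 1, 2 and 3. The 95% Poisson interval, which covers counting error only, was 154 to 159 CPM in dexamethasone day 2 and 6.30 to 7.39 CPM in control day 1. Single cells had a median of 135 CPM of Mt2 in dexamethasone day 2, with a range of 0 to 1460, against a median of 0.995 and a range of 0 to 71.9 in control day 1. Low cells of dexamethasone day 2 overlapped the control cells, but its middle cell was above the highest control cell. At 500000 counts per cell, 97.8% of 89 dexamethasone cells had a count of Mt2 (Clopper-Pearson 95% interval 92.1 to 99.7%), against 48.3% of 87 control cells (37.4 to 59.2%). Such intervals, here and below, cover the sampling of cells within 1 plate only. They say nothing of the spread between plates or cultures of a condition.

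Its neighbour Mt1 was at 680 CPM in dexamethasone day 2 and 180 CPM in control day 1, a log2 ratio of 1.92. Per1, a repressor of the circadian clock, was at 79.6 CPM in dexamethasone day 2 and 20.7 CPM in control day 1. Zfp36l2 encodes a protein that destabilises messenger RNA and is known to be needed for self-renewal of these progenitors in mice. It had 40.2, 54.7 and 31.9 CPM on dexamethasone days 1, 2 and 3, against 16.1, 6.93 and 8.10 CPM on control days 1, 2 and 3. For Mt1, Mt2, Per1, Zfp36l2, Tsc22d3, Fkbp5 and Klf9, all 3 dexamethasone plates were above all 3 control plates. Tsc22d3 and Fkbp5, both standard markers of the receptor's activity, had log2 ratios of 1.63 and 1.06. Other listed targets did not follow. Anxa1, an anti-inflammatory annexin, was at 2.14 CPM in dexamethasone day 2 and 10.5 CPM in control day 1, with 53.2% of the dexamethasone counts and 37.7% of the control counts in 1 cell each. Angptl4, an inhibitor of lipoprotein lipase, was at 11.1 CPM in dexamethasone day 2 and 36.2 CPM in control day 1. Dusp1, a phosphatase of MAP kinases, differed little from control day 1, with a log2 ratio of -0.19. Of 15 measured receptor partners and chaperones, none was at least 2-fold lower, and their median log2 ratio was -0.38. Fkbp4, a chaperone of the receptor, was at 560.2 CPM in dexamethasone day 2 and 1043 CPM in control day 1.

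The genes of largest ratio included several that control day 1 did not express measurably. Slc26a9, an anion transporter of epithelia (chromosome 1, bases 131744022 to 131771504, plus strand), had 0.897, 34.4 and 4.25 CPM on dexamethasone days 1, 2 and 3, against 0, 2.20 and 0.126 CPM on control days 1, 2 and 3. Set against the 3 counts that a count of 0 allows on the plate, it was at least 1035-fold higher in dexamethasone day 2 than in control day 1. Such a bound covers the counting error of reads on these 2 plates only, and is no least effect of the condition. At 500000 counts per cell it was found in 57.3% of dexamethasone cells and in 0 of 87 control cells, an upper limit of 4.15%. C3ar1, the receptor of complement fragment C3a, was at 26.9 CPM in dexamethasone day 2 and had no count in control day 1, at least 810-fold higher on the same basis. Havcr2, an immune checkpoint receptor, was at 22.1 CPM in dexamethasone day 2 with no count in control day 1, at least 665-fold higher. C3ar1 and Havcr2 were also found at 5.09 and 13.3 CPM on control day 2.

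Other genes of this group were seen in most dexamethasone cells. Rec8, a cohesin subunit of meiosis, had 19.2, 86.5 and 65.6 CPM on dexamethasone days 1, 2 and 3, against 1.99, 14.3 and 1.64 CPM on control days 1, 2 and 3. A count of Rec8 was found in 94.6% of cells of dexamethasone day 2 and 7.45% of cells of control day 1. Anxa2, a membrane-binding annexin, was at 444 CPM in dexamethasone day 2 and 19.2 CPM in control day 1, and Lama5, a laminin chain, at 107 CPM in dexamethasone day 2 and 4.60 CPM in control day 1. The median cell had 339 CPM of Anxa2 in dexamethasone day 2 (range 1.57 to 2683), against a median of 0 in control day 1 (range 0 to 152), below that middle dexamethasone cell. Nt5e, the ecto-nucleotidase CD73, was at 36 CPM in dexamethasone day 2 and 0.853 CPM in control day 1. Fam198b was at 118 CPM in dexamethasone day 2 and 4.50 CPM in control day 1. Aldoc, Ankrd36, Arhgef10l and Gda completed this group with log2 ratios of 6.03, 6.05, 4.58 and 6.03. Aldoc and Gda reached similar levels on control day 2, at 42.6 and 35.2 CPM beside 37.5 and 40.3 CPM in dexamethasone day 2.

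Apoa1 (chromosome 9, bases 46228580 to 46230466, plus strand), the main apolipoprotein of high-density lipoprotein and a product of hepatocytes, had 3.75, 59.5 and 3.68 CPM on dexamethasone days 1, 2 and 3, against 0.210, 0.0844 and 0 CPM on control days 1, 2 and 3. It was found in 62% of cells of dexamethasone day 2 and 6.38% of cells of control day 1. The 12 hepatocyte markers summed to 62.8 CPM in dexamethasone day 2 and 3.90 CPM in control day 1, of which Apoa1 made up 59.5 CPM in dexamethasone day 2 and 0.210 CPM in control day 1. Alb, Ttr, Serpina1a, Apoc3 and Fabp1 had no count on either plate. Apob, Fgb and Ahsg had counts in dexamethasone day 2 and none in control day 1. At least 10 CPM of at least 2 hepatocyte markers were found in 6 of 92 cells of dexamethasone day 2 and 0 of 94 cells of control day 1. The part of liver cell RNA in the Apoa1 level was not tested. Of 10 measured genes of lipid uptake, Apoa1 among them, 3 were at least 2-fold higher and 2 at least 2-fold lower, with a median log2 ratio of -0.29. Lpl, the lipase that frees fatty acids from lipoproteins, had 27.8, 87.4 and 72.7 CPM on dexamethasone days 1, 2 and 3, against 7.40, 7.78 and 3.09 CPM on control days 1, 2 and 3. Abcg1, a cholesterol exporter, was at 164 CPM in dexamethasone day 2 and 27.8 CPM in control day 1. Cpt1a, which brings fatty acids into mitochondria, had a log2 ratio of -1.14. Of 29 genes of cholesterol and fatty acid synthesis, 1, Scd1, was at least 2-fold higher and none at least 2-fold lower.

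Genes shared with mast cells and basophils were higher in dexamethasone day 2, without the full set of their granule genes. Of 19 listed genes 9 were measured, 7 at least 2-fold higher and none at least 2-fold lower, with a median log2 ratio of 4.04. A gene could enter through dexamethasone day 2 alone, which raises this count and median. With a floor of 1 CPM, 8 of 14 were at least 2-fold higher and 1 at least 2-fold lower, with a median of 1.84. The list summed to 2001 CPM in dexamethasone day 2 and 240 CPM in control day 1, and its median cell to 968 CPM in dexamethasone day 2 and 113 CPM in control day 1. Il1rl1, the receptor of interleukin 33, had 28.8, 141 and 66.2 CPM on dexamethasone days 1, 2 and 3, against 6.07, 12.9 and 10.5 CPM on control days 1, 2 and 3. Single cells had a median of 101 CPM of Il1rl1 in dexamethasone day 2 (range 0 to 1649), against a median of 0 in control day 1 (range 0 to 266). At 500000 counts per cell, 93.3% of dexamethasone cells (85.9 to 97.5%) and 13.8% of control cells (7.34 to 22.9%) had a count of it. The difference was thus spread over the plate.

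Csf2rb, the shared beta chain of the receptors of interleukin 3, interleukin 5 and GM-CSF, was at 674 CPM in dexamethasone day 2 and 41 CPM in control day 1. It also reached 371 and 728 CPM on control days 2 and 3, levels like that of dexamethasone day 2. Hdc, which makes histamine, was at 681 CPM in dexamethasone day 2 and 23.4 CPM in control day 1. A single cell held 37.6% of the Hdc counts of dexamethasone day 2 and another 44.1% of those of control day 1. The median cell had 146 CPM of Hdc in dexamethasone day 2 and 0 in control day 1. Il1rl2, a receptor of interleukin 36, was at 37.4 CPM in dexamethasone day 2 and 3.00 CPM in control day 1. Cd200r3, an activating receptor of mast cells and basophils, had 0.158, 52.6 and 4.07 CPM on dexamethasone days 1, 2 and 3, against 0.653, 0.544 and 0.0720 CPM on control days 1, 2 and 3. Granule genes were held by few cells. A single cell of dexamethasone day 2 held 91.5% of the Cma1 counts and 61.5% of the Gzmb counts there, and control day 1 had no count of either. Tpsab1, Mcpt4, Fcer1a and Prss34, all of them defining genes, had no count in dexamethasone day 2. Control day 1 had no count of 7 of the 19 listed genes, namely Mcpt4, Fcer1a, Prss34, Cma1, Gzmb, Tpsb2 and Tph1. At least 10 CPM of at least 2 of 10 granule and receptor genes were found in 3 cells of dexamethasone day 2 and 5 cells of control day 1. Without those cells 5 genes of the list were measured, with a median of 4.45, and without the highest cell of each gene 7 were measured, with a median of 1.62. With cells holding neutrophil or monocyte markers left out, the list median was 6.08, and the log2 ratios were 10.95 for Hdc, 6.78 for Csf2rb, 9.28 for Il1rl2 and 5.34 for Il1rl1, values that depend on the prior count where few control counts remain. The part of rare granule-bearing cells in the plate levels was not tested further.

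Genes of early progenitors split in direction. Of 17 measured, 4 were at least 2-fold higher and 7 at least 2-fold lower in dexamethasone day 2 than in control day 1, with a median log2 ratio of -0.35. Kit, the receptor of stem cell factor (chromosome 5, bases 75574916 to 75656722, plus strand), had 489, 727 and 280 CPM on dexamethasone days 1, 2 and 3, against 312, 141 and 49.9 CPM on control days 1, 2 and 3. The median cell had 675 CPM of Kit in dexamethasone day 2 (range 17.2 to 5427), against a median of 267 in control day 1 (range 0 to 2051), so the ranges overlapped. Gata2, a transcription factor of stem cells and early progenitors that is replaced by Gata1 as red cells mature, was at 105 CPM in dexamethasone day 2 and 32.9 CPM in control day 1. Spi1, a factor of myeloid and early progenitors, was at 69.6 CPM in dexamethasone day 2 and 24.2 CPM in control day 1. Cd48 also belonged to this group. Kit, Gata2 and Spi1 had their highest level of the 6 plates in dexamethasone day 2, and Gata2 and Cd48 were higher on every dexamethasone plate than on every control plate.

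The members at least 2-fold lower included Cd34, Hoxa9 and Flt3. Cd34, a marker of stem and early progenitor cells (chromosome 1, bases 194938819 to 194961279, plus strand), was at 17.2 CPM in dexamethasone day 2 and 178 CPM in control day 1, a log2 ratio of -3.37. Hoxa9, a homeobox factor of primitive progenitors, was at 0.813 CPM in dexamethasone day 2 and 27 CPM in control day 1. Flt3, a receptor of multipotent progenitors, was at 8.65 CPM in dexamethasone day 2 and 61 CPM in control day 1, and Hlf, Meis1 and Cd93 were lower too. These transcripts lay in a minority of control cells, as a count of Cd34 was found in 18.5% of cells of dexamethasone day 2 and 43.6% of cells of control day 1. The shares for Hoxa9 were 2.17% in dexamethasone day 2 and 26.6% in control day 1. With the 8 cells of dexamethasone day 2 and 19 cells of control day 1 that held neutrophil or monocyte markers left out, 6 of 16 listed genes were at least 2-fold higher and 4 at least 2-fold lower, with a median of 0.08. The D cyclin Ccnd1, of another list, then had a log2 ratio of -0.35 in place of -2.33, while Cd34 was at -3.45 and Gata2 at 2.39. Hoxa9 and Flt3 were at -8.99 and -9.44 without these cells, values that depend on the prior count added to low counts. The stage scores from 0.03 to 2.98 held 72 cells of dexamethasone day 2 and 36 of control day 1. Among these cells, 6 of 12 measured genes were at least 2-fold higher and 2 at least 2-fold lower, with a median of 0.75. The score that chose these cells is built in part from these same genes, so nothing is read from this shift.

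Genes of red cell maturation were close between the plates as groups, as the choice of the pair sets, but single genes were far apart. Of 12 heme synthesis genes, 1 was at least 2-fold higher and 1 at least 2-fold lower, with a median log2 ratio of 0.05. Alas2, the erythroid enzyme that begins heme synthesis, was at 18.5 CPM in dexamethasone day 2 and 7.51 CPM in control day 1. Alad, the next enzyme, was at 150 CPM in dexamethasone day 2 and 403 CPM in control day 1. The plate levels of these neighbouring steps differed in opposite directions, but Alas2 was low on both plates. A count of Alas2 was found in 41.3% of cells of dexamethasone day 2 and 18.1% of cells of control day 1, and its median cell was at 0 on both. Control days 2 and 3 had 787 and 2031 CPM of Alas2. Of 21 membrane and surface genes, 4 were at least 2-fold higher and 4 at least 2-fold lower. Sptb, the erythroid beta spectrin, was at 332 CPM in dexamethasone day 2 and 110 CPM in control day 1, and Tmod1, which caps actin in the membrane skeleton, had a log2 ratio of 1.62. Rhag and Kel were higher too. Dmtn, the actin-bundling protein dematin, was at 6.08 CPM in dexamethasone day 2 and 21.6 CPM in control day 1, and the water channel Aqp1 at 14.2 CPM in dexamethasone day 2 and 50.2 CPM in control day 1. Tmcc2 was at 1.05 CPM in dexamethasone day 2 and 10.4 CPM in control day 1, and was lower on every dexamethasone plate than on every control plate.

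The transcription factors of the lineage differed little as a group. Of 22 erythroid regulators, 1 was at least 2-fold higher, the heme-regulated repressor Bach1, and 1 at least 2-fold lower, the progenitor factor Myb. Gata1 was at 260.0 CPM in dexamethasone day 2 and 320.4 CPM in control day 1, and Klf1 at 200.1 CPM in dexamethasone day 2 and 343 CPM in control day 1. Globins were low on both plates. Hbb-bs was at 326 CPM in dexamethasone day 2 and 256 CPM in control day 1, and Hba-a1 at 112 CPM in dexamethasone day 2 and 41.6 CPM in control day 1. Within the shared stage range, the log2 ratio of Hba-a1 was 2.48 in place of 1.42. The median of the 3 measured globin genes was 1.78 there in place of 0.72. Globin genes are part of the stage score that sets this range, so nothing is read from these shifts. Among 11 iron genes, Aco1, the iron regulatory protein, was at 356 CPM in dexamethasone day 2 and 79.6 CPM in control day 1. Slc40a1, the iron exporter ferroportin, had 27.1, 15.6 and 50.6 CPM on dexamethasone days 1, 2 and 3, against 69.8, 65.2 and 72.5 CPM on control days 1, 2 and 3. Each dexamethasone plate was below each control plate. Slc25a37, the mitochondrial iron importer, was at 48.0 CPM in dexamethasone day 2 and 97.0 CPM in control day 1.

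**Figure D3:**
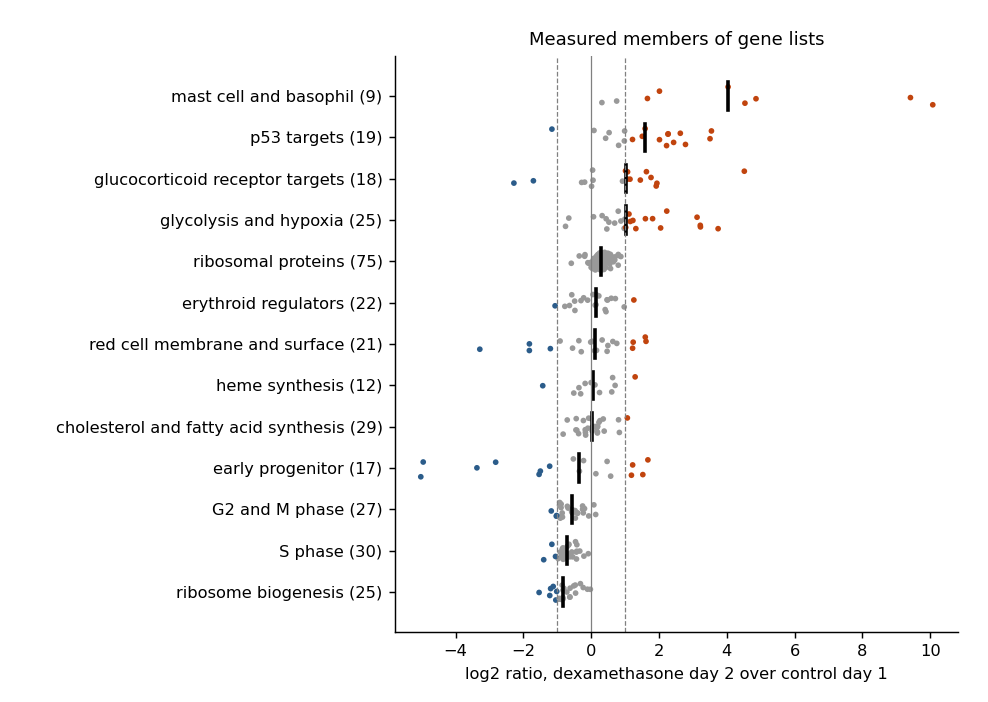
Log2 ratio of dexamethasone day 2 over control day 1 (horizontal axis) for the measured members of 13 gene lists, with the number measured in parentheses. Each point is a gene, black bars are list medians, dashed lines mark 2-fold, and the erythroid lists centre near 0 while the mast cell, p53, glucocorticoid and glycolysis lists lie to the right.

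Glycolysis and its hypoxia-responsive partners were higher in dexamethasone day 2. Of 25 measured genes, 13 were at least 2-fold higher and none at least 2-fold lower, with a median log2 ratio of 1.02. Slc2a3, a glucose transporter, had 92.3, 791 and 146 CPM on dexamethasone days 1, 2 and 3, against 90.8, 417 and 496 CPM on control days 1, 2 and 3. Per cell, the median was 490.1 CPM of Slc2a3 in dexamethasone day 2 (range 1.55 to 5366), against a median of 74.3 in control day 1 (range 0 to 466), so the middle dexamethasone cell was above the highest control cell. Slc2a1, the main glucose transporter of many cells, was at 213 CPM in dexamethasone day 2 and 51.6 CPM in control day 1. The enzymes Aldoa and Pkm had log2 ratios of 1.32 and 1.60. Ldha, which turns pyruvate into lactate, was the most abundant, at 4088 CPM in dexamethasone day 2 and 2351 CPM in control day 1.

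Egln3, Bnip3 and Ankrd37, whose promoters are shown above, had the largest ratios with Slc2a3. Egln3, a prolyl hydroxylase that marks hypoxia-inducible factor for removal, had 51.1, 215 and 60.9 CPM on dexamethasone days 1, 2 and 3, against 23.1, 13.1 and 11.6 CPM on control days 1, 2 and 3. Every dexamethasone plate was above every control plate for Egln3, and its log2 ratio was 6.23 in place of 3.22 once cells with neutrophil or monocyte markers were left out. At 500000 counts per cell it was found in 96.6% of dexamethasone cells (90.5 to 99.3%) and 21.8% of control cells (13.7 to 32.0%). Bnip3, which directs mitochondria to autophagy, was at 126 CPM in dexamethasone day 2 and 13.5 CPM in control day 1, but at 180 CPM on control day 2. Ankrd37 was at 29.6 CPM in dexamethasone day 2 and 2.19 CPM in control day 1, with 25.8 CPM on control day 2. P4ha1, a collagen prolyl hydroxylase, was at 164 CPM in dexamethasone day 2 and 35 CPM in control day 1, with 166 CPM on control day 2. Between the control plates of days 2 and 1 the list had a median log2 ratio of 1.04, and between dexamethasone day 2 and control day 2 one of -0.05. These pairs share plates with the comparison, and among Egln3, Bnip3, Ankrd37 and P4ha1 only Egln3 was at least 2-fold higher in dexamethasone day 2 than on each control plate.

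Targets of p53, the transcription factor of DNA damage and growth stress, showed the same pattern of days. Of 19 measured, 12 were at least 2-fold higher and 1, Sesn1, at least 2-fold lower in dexamethasone day 2 than in control day 1, with a median log2 ratio of 1.59. Ccng1, a cyclin-like target of p53, had 310.1, 1141 and 1076 CPM on dexamethasone days 1, 2 and 3, against 282, 717 and 781 CPM on control days 1, 2 and 3. Per cell, the median was 1178 CPM of Ccng1 in dexamethasone day 2 (range 23.9 to 2757), against a median of 220.3 in control day 1 (range 2.06 to 1982), with overlapping ranges. Cdkn1a, the cell cycle inhibitor p21, had 54.4, 432 and 347 CPM on dexamethasone days 1, 2 and 3, against 89.4, 506 and 612 CPM on control days 1, 2 and 3. In both treatments the days after the first were higher. Trp53inp1, Eda2r, Perp, Plk2 and Zmat3 had log2 ratios of 3.5, 3.55, 2.78, 2.63 and 2.43. The list's median log2 ratio was -0.18 for dexamethasone day 1 over control day 1, 1.32 for dexamethasone day 2 over day 1, 1.19 for control day 2 over day 1 and 0.03 for dexamethasone day 2 over control day 2. Among 11 BCL2 family genes, Bax and Pmaip1, which promote cell death and are targets of p53, and Bnip3 were at least 2-fold higher and none was at least 2-fold lower. Of 14 measured D cyclins and cell cycle inhibitors, 5 were at least 2-fold higher and 1, Ccnd1, at least 2-fold lower, with a median of 0.43. Btg2 was at 106 CPM in dexamethasone day 2 and 30.5 CPM in control day 1, Cdkn1b (p27) at 22.6 CPM in dexamethasone day 2 and 8.32 CPM in control day 1, and Rb1 at 44.5 CPM in dexamethasone day 2 and 17.3 CPM in control day 1. On control day 2 they were higher still, at 293 CPM for Btg2, 34.6 CPM for Cdkn1b and 114 CPM for Rb1.

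**Figure D4:**
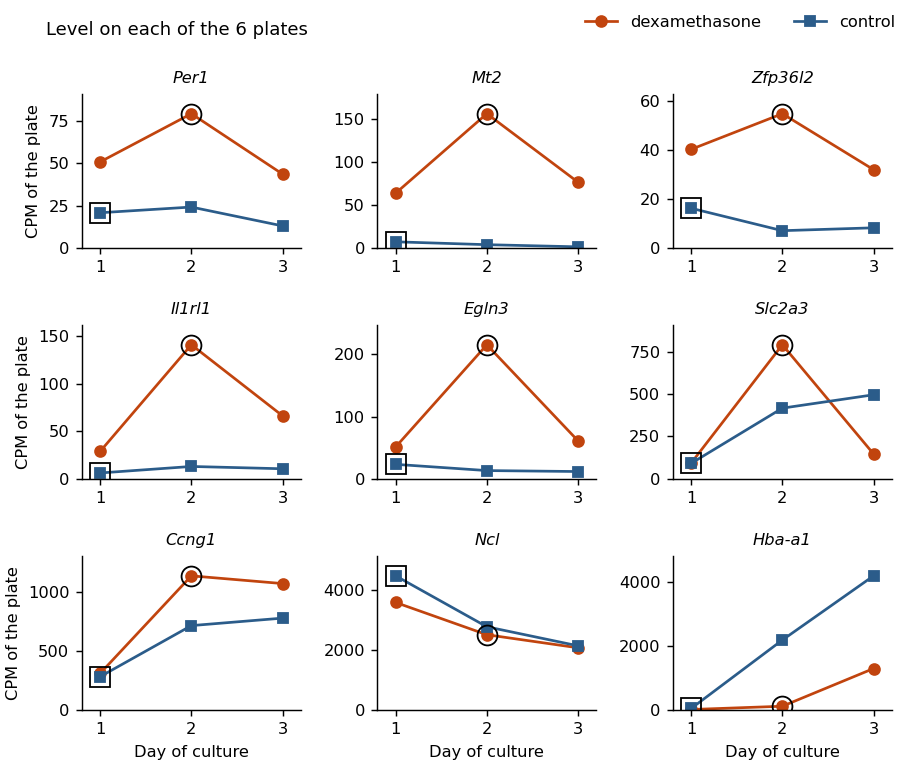
Plate level (vertical axes, CPM) of 9 genes by day of culture (horizontal axes) in dexamethasone (orange circles) and control (blue squares), with 1 plate a point and the compared plates outlined in black. Per1, Mt2, Zfp36l2, Il1rl1 and Egln3 are above control on every dexamethasone day, Slc2a3 and Ccng1 are also higher on control days 2 and 3, and Ncl is lower with the day in both treatments.

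Most genes of DNA replication and mitosis had ratios below 0, but few passed 2-fold. All 30 S phase genes had a log2 ratio below 0, with a median of -0.71, and 3 were at least 2-fold lower in dexamethasone day 2 than in control day 1. Of all 8694 genes, 3938 had a ratio above 0, and the median was -0.07. Ccne1, the cyclin of entry into S phase, was at 175 CPM in dexamethasone day 2 and 463 CPM in control day 1. Uhrf1 and Tk1 were the others past 2-fold. Mcm6, a subunit of the replicative helicase, had 846, 615 and 685 CPM on dexamethasone days 1, 2 and 3, against 1207, 1024 and 953 CPM on control days 1, 2 and 3. Single cells had a median of 587 CPM of Mcm6 in dexamethasone day 2 (range 2.72 to 1567), against a median of 1147 in control day 1 (range 63.5 to 3370), with overlapping ranges. Of 27 genes of G2 and M phase, 25 had a ratio below 0 and 3 were at least 2-fold lower, with a median of -0.58. Aurka, a mitotic kinase, was at 68.2 CPM in dexamethasone day 2 and 154 CPM in control day 1, and Ccnb1 and Ube2c were the others. All 3 dexamethasone plates were below all 3 control plates for 13 of the 30 S phase genes and 18 of the 27 genes of G2 and M phase. The same held for 766 of all 8694 genes (8.81%).

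Ribosome biogenesis genes and ribosomal protein genes had medians of opposite sign, beside 3938 of all 8694 genes with a ratio above 0. All 25 ribosome biogenesis genes had a log2 ratio below 0, 6 were at least 2-fold lower, and the median was -0.83. Polr1b, a subunit of RNA polymerase I, was at 96.3 CPM in dexamethasone day 2 and 279 CPM in control day 1. Ncl, the nucleolar protein nucleolin, had 3581, 2504 and 2068 CPM on dexamethasone days 1, 2 and 3, against 4468, 2770 and 2134 CPM on control days 1, 2 and 3. The list's median was -0.78 for control day 2 over control day 1, and no gene of it had all dexamethasone plates below all control plates. Of 75 ribosomal protein genes, 67 had a ratio above 0 and none was past 2-fold in either direction, with a median of 0.28. All 3 dexamethasone plates were above all 3 control plates for 21 of them, beside 567 of all 8694 genes (6.52%). Rpl39 was at 84.9 CPM in dexamethasone day 2 and 46.3 CPM in control day 1, while Rpl4, the most abundant, was at 3451 CPM in dexamethasone day 2 and 3432 CPM in control day 1. Myc, a driver of ribosome production, was at 351 CPM in dexamethasone day 2 and 534 CPM in control day 1. The hosts of small nucleolar RNAs Snhg4, Snhg5 and Snhg12 were at least 2-fold lower, and the nuclear RNAs Malat1 and Neat1 at least 2-fold higher.

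Among receptors of the factors in the culture, Kit and Igf1r were at least 2-fold higher and Epor had a log2 ratio of 0.17. Igf1r, the receptor of insulin-like growth factor 1, had 76.2, 268 and 111 CPM on dexamethasone days 1, 2 and 3, against 75.7, 84.4 and 52.1 CPM on control days 1, 2 and 3. Igf2r, which clears insulin-like growth factor 2, was at 74.5 CPM in dexamethasone day 2 and 25.8 CPM in control day 1, and Tsc2, a brake on mTOR, had a log2 ratio of 1.35. Of 16 genes of this pathway these 3 were at least 2-fold higher and 1, Pik3cd, at least 2-fold lower. Of 15 genes of erythropoietin and STAT5 signalling, 3 were at least 2-fold higher and 2 at least 2-fold lower, with a median of 0.17. Socs2, a feedback inhibitor of cytokine receptors, was at 40.1 CPM in dexamethasone day 2 and 12.9 CPM in control day 1. Genes of TGF-beta and BMP signalling were mixed, with 4 of 12 at least 2-fold higher and 2 at least 2-fold lower. Tgfbr2, a receptor of TGF-beta, was at 50.5 CPM in dexamethasone day 2 and 12.7 CPM in control day 1. The coreceptor Tgfbr3 was at 34.2 CPM in dexamethasone day 2 and 91.8 CPM in control day 1. Tgfb1, Tgfbr2 and Bmpr2 were higher on every dexamethasone plate than on every control plate. Bmpr1a, a BMP receptor, was at 14.1 CPM in dexamethasone day 2 and 0.664 CPM in control day 1.

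The lowest ratios fell on genes of several kinds. Ass1, an enzyme of arginine synthesis, was at 8.70 CPM in dexamethasone day 2 and 88.1 CPM in control day 1, a log2 ratio of -3.34. Dnmt3b, a DNA methyltransferase, had 93.5, 22.9 and 23.3 CPM on dexamethasone days 1, 2 and 3, against 161, 20.4 and 18.8 CPM on control days 1, 2 and 3. Both treatments thus had low Dnmt3b after day 1. Tet2, which oxidises methylated cytosine, was at 93.5 CPM in dexamethasone day 2 and 24.8 CPM in control day 1. Atp1b2, a subunit of the sodium pump, had 38.5, 27.6 and 81.4 CPM on dexamethasone days 1, 2 and 3, against 194, 219 and 148 CPM on control days 1, 2 and 3. A count of Atp1b2 was found in 58.7% of cells of dexamethasone day 2 and 85.1% of cells of control day 1. Rgcc, Mospd1, BC055324 and Ston2 were also at least 2-fold below every control plate, at 9.70, 8.44, 10.5 and 5.69 CPM in dexamethasone day 2 beside 64.6, 44.6, 63.9 and 26.1 CPM in control day 1. Selenop, Tmem176b, Sirpa and Nfam1 had log2 ratios of -3.00, -2.99, -2.75 and -2.62 and were found in 42.6%, 25.5%, 35.1% and 33% of control cells. Nqo1, an enzyme of the oxidant response, was at 32.7 CPM in dexamethasone day 2 and 106 CPM in control day 1.

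Other plates show where these levels sit in time. For the 675 higher genes, the median log2 ratio was 0.43 for dexamethasone day 1 over control day 1 and 1.23 for dexamethasone day 2 over day 1. By the other route it was 0.83 for control day 2 over day 1 and 0.79 for dexamethasone day 2 over control day 2. For the 649 lower genes the same 4 values were -0.39, -1.01, -0.89 and -0.57. All these pairs share a plate with the comparison, so they describe its parts and are no separate support. Over the same 8694 genes, 1.78% were at least 2-fold higher and 2.62% at least 2-fold lower in dexamethasone day 1 than in control day 1. The shares were 7.58% and 5.28% for dexamethasone day 2 over day 1, 8.17% and 8.2% for control day 2 over day 1, and 7.98% and 7.15% for dexamethasone day 2 over control day 2. Glucocorticoid targets had a median of 0.72 for dexamethasone day 1 over control day 1 and of -0.23 for control day 2 over day 1. The p53, glycolysis and ribosome biogenesis lists had medians of 1.19, 1.04 and -0.78 for control day 2 over day 1. The S phase list had a median of 0.11 there and -0.81 for dexamethasone day 2 over control day 2. The mast cell and basophil list had medians of -0.05 for dexamethasone day 1 over control day 1 and 2.79 for dexamethasone day 2 over day 1.

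**Figure D5:**
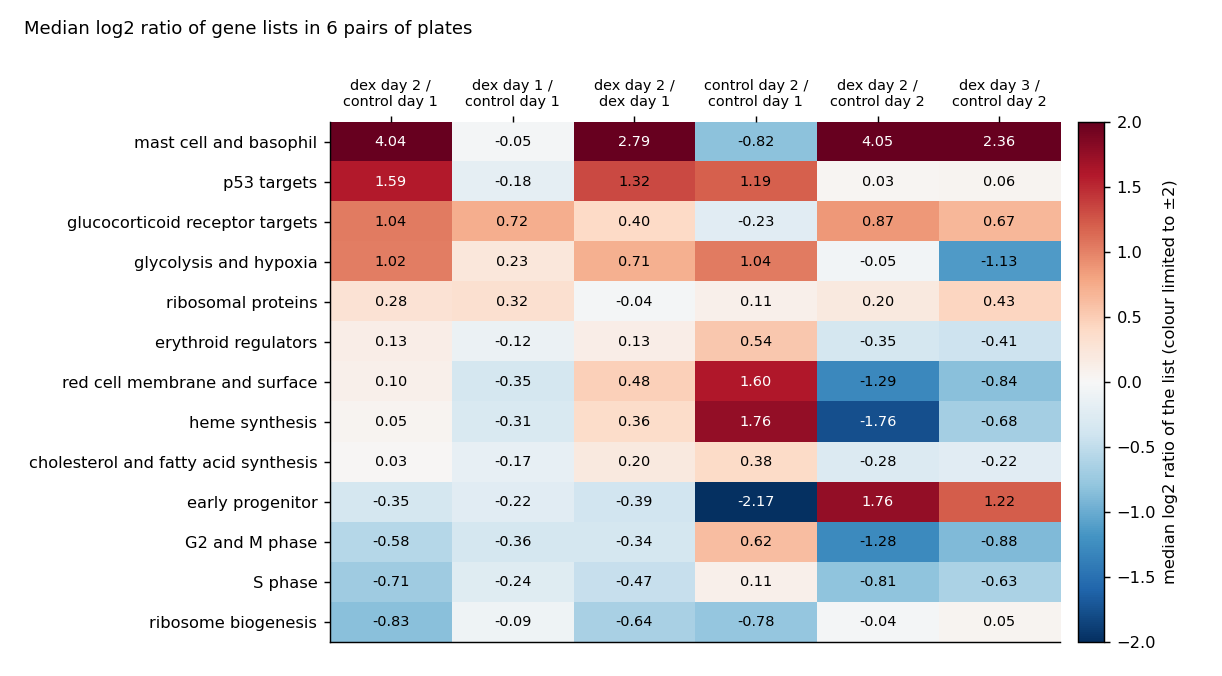
Median log2 ratio of the measured members of 13 gene lists (rows) in 6 pairs of plates (columns), printed in each cell and coloured from blue (lower) to red (higher) up to ±2. Dex stands for dexamethasone, and glucocorticoid targets are higher in dexamethasone on day 1 (0.72), while p53 targets are higher on control day 2 than on control day 1 (1.19).

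Dexamethasone day 3 and control day 2 form a second pair that also differs by treatment and by 1 day and shares no plate with the first. Of the 8694 genes, 528 (6.07%) were at least 2-fold higher and 413 (4.75%) at least 2-fold lower in dexamethasone day 3 than in control day 2. Of the 675 genes higher in the first pair, 168 (24.9%) were also at least 2-fold higher in the second and 62 (9.19%) at least 2-fold lower. The 168 genes are 31.8% of the 528. Of the 649 genes lower in the first pair, 82 (12.6%) were also at least 2-fold lower in the second, which is 19.9% of the 413, and 94 (14.5%) were at least 2-fold higher. By count, fewer of the lower genes shared the direction than opposed it. Both of their shares were above those of all 8694 genes, 4.75% lower and 6.07% higher. Among the genes shared in the higher direction were Mt2 (log2 ratio 4.45 in the second pair), Lpl (3.22), Il1rl1 (2.36), Zfp36l2 (2.20), Egln3 (2.21), Rec8 (2.20) and Abcg1 (3.70). The glucocorticoid targets had a median of 0.67 in the second pair, with 6 genes at least 2-fold higher and 5 at least 2-fold lower. The glycolysis list had a median of -1.13, with 1 gene at least 2-fold higher and 16 at least 2-fold lower. The p53 list had a median of 0.06, the S phase list of -0.63, the G2 and M phase list of -0.88 and the ribosome biogenesis list of 0.05. Stage differed within this second pair, with median scores of 3.43 for dexamethasone day 3 and 4.98 for control day 2. The part of the stage in these ratios was not tested.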

How the data were processed

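RNA of single fetal liver progenitors was sequenced by plate, 1 cell to a well, and the authors deposited a table of read counts per gene and well, described here as deposited, with no normalization. Alignment with STAR 2.4 to GRCm38 and counting with featureCounts are named per the submitters' processing notes. For the annotation release, the strand setting and multimapping reads, nothing is given by the sources used here, so near-identical pairs (Hba-a1 and Hba-a2, Hbb-bs and Hbb-bt, Csf2rb and Csf2rb2, Mt1 and Mt2) and overlapping or antisense genes are uncertain. Of 576 columns, 1 matched no sample label and was not used, and an empty header cell was dropped. No molecular identifiers are stated, so intervals of plate levels cover counting error only. Intervals of shares of cells cover the sampling of cells within 1 plate only. No doublet caller was run. Of 575 wells, 563 were kept.

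Counts were summed per plate and scaled with TMM factors (edgeR 4.0.16 in R 4.3.3), and log2 ratios used a prior count of 2. Genes with at least 10 CPM on the higher plate were compared, and a call means at least 2-fold. With 1 plate a group no test was made. A floor of 3 counts stood for a count of 0. Shares of cells used cells thinned to 500000 counts where stated. Alternatives were plain CPM, median-of-ratios size factors (DESeq2 1.42.0), other filters on low values, other sets of cells, equal weights and a prior count of 0.5. The members and the 47 gene lists were chosen with earlier results of these data known. Named genes were the 15 highest and 15 lowest ratios among genes with at least 20 CPM, a count in 25% of cells and no cell with over 20% of the counts, up to 5 members of each list with the largest ratio and the most abundant one, the 10 farthest above and the 10 farthest below every control plate, and the sort markers. Tsc22d3, Fkbp5, Klf9, Dusp1, Spi1, Cd48, Meis1, Cd93, Kel, Rhag, Slc2a1, Aldoa, Pkm, Sesn1, mt-Rnr2 and CT010467.1 were named after their values were seen. Coordinates are from GENCODE vM21 for 49326 of 49466 genes, and 76 symbols stood on several rows. Some items are not reported here.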

Additional observations from a re-analysis of the deposited data

How the results depend on the processing

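The filter on low values moved the counts of genes most. With genes of at least 1 CPM, at least 50 CPM or with no filter, 1854, 238 or 5722 genes were at least 2-fold higher (675 with the 10 CPM filter) and 1554, 219 or 4012 at least 2-fold lower (649). Above every control plate were 697, 77 or 2637 genes (235), and below every one 333, 49 or 666 (129). The higher genes shared with dexamethasone day 3 over control day 2 numbered 574, 56 or 1557 (168), and the lower ones 334, 17 or 923 (82). Under the other alternatives run, which changed the scaling, the prior count or the cells, the higher genes numbered 628 to 941 and the lower ones 612 to 686. Of 261 named genes, 59 moved by over 1.5-fold when cells were limited to the shared stage range, 30 without cells with neutrophil or monocyte markers, 21 without the highest cell of each gene, and none under another scaling. Among values past 2-fold, signs turned for Ccnd1 (0.74 within the shared stage range), Psmb8 (0.64 without cells with neutrophil or monocyte markers) and the neutrophil and monocyte list, whose median was 0.052 without cells with mast cell granule genes, against -1.14. Counting smaller values too, 5 named genes and 8 list medians changed sign within the shared stage range, and 9 named genes and 6 list medians when the cells of neutrophil or monocyte character were left out. Ifitm1 and Igf2bp2 were then at 1.28 and 1.02, against -0.70 and -0.38. The cause was not tested. Leaving out the cells with mast cell granule genes was chosen after seeing the data. No paired analysis was possible because each combination of treatment and day has 1 plate, and leaving out a plate would leave no comparison. A floor of 3 counts was 0.0257 CPM in dexamethasone day 2 and 0.0332 CPM in control day 1, far below the 10 CPM asked of a gene; the precision of a plate as a sample of its condition is unknown with 1 plate a side.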

Other observations

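Further gene groups stood out in single members. Of 17 genes of amino acid supply and the integrated stress response, 5 were at least 2-fold higher in dexamethasone day 2 than in control day 1 and none at least 2-fold lower, with a median log2 ratio of 0.10. Cth, which makes cysteine, Slc7a11, the cystine importer, and Trib3 had log2 ratios of 3.59, 2.31 and 2.03. Slc30a10, a manganese exporter, had 28.4, 93.2 and 73.4 CPM on dexamethasone days 1, 2 and 3, against 11.9, 119 and 70.8 CPM on control days 1, 2 and 3, so that it was as high on control day 2. Medians were 0.00 for 21 chaperones of the endoplasmic reticulum, 0.08 for 33 nuclear respiratory chain genes and 0.05 for 8 measured mitochondrially encoded genes. No gene of these lists was past 2-fold in either direction. The mitochondrial ribosomal RNA mt-Rnr2, given above, was not in these lists and was more than 2-fold higher in dexamethasone day 2. Of 9 measured interferon response genes, none was at least 2-fold higher and 3 at least 2-fold lower, with a median of -0.59, which was -0.08 with cells thinned to 500000 counts and 0.22 within the shared stage range. The megakaryocyte list, with 16 measured genes, had 1 gene at least 2-fold higher, Plek, and 2 at least 2-fold lower, with a median of 0.39 that was 0.09 with cells weighted equally and -0.06 within the shared stage range.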
